A study of Mus musculus with 6 samples.

Results

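Transcripts of 38 interferon-stimulated genes were read out in 6 RNA-seq libraries of sorted mouse blood cells. The genes were taken from a named list that leaves out the class I and II histocompatibility genes and the Ifitm family, and each symbol was matched to 1 Ensembl identifier among the 55401 of the count table. All 38 had a row, 36 had at least 1 count in a library, and Ifit2 and Ifi44 had 0 counts in every library. There are 2 sets, A and B by their labels, with 3 libraries in each. All came from wild-type (WT) mice of a study in which MC903, a vitamin D analogue that causes an inflammation like atopic dermatitis, was put on the skin of both ears (2 nmol a day, day 0 to day 6, dissolved in 10 µL of pure ethanol), while control mice received the ethanol alone. The sources used here do not say which set received MC903, and a positive difference below means a higher value in B. Live CD45+ cells without lineage markers and with CD49b and FcεRIα or IgE were sorted as basophils from blood per the library labels, while the series' design text names ear skin. The sources used here give no age, sex or number of mice per library, and nothing says that the replicates are separate animals, so the p-values reflect no more than the scatter among these 6 libraries, and that scatter may be technical.

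Interferons are secreted proteins that alert cells to infection. Type I interferons bind the receptor Ifnar1 and Ifnar2, which activates the kinases Jak1 and Tyk2. These lead Stat2 and Irf9 into a complex that binds the interferon-stimulated response element in promoters. Interferon gamma binds Ifngr1 and Ifngr2 and acts on the gamma-activated site. The genes switched on in this way encode antiviral enzymes, sensors of foreign nucleic acid, GTPases that attack vacuoles of microbes, and regulators of the response itself, and many of them also have a resting level in blood leukocytes.

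Promoter sequences were read from RefSeq (build GRCm38.p6), as windows of 300 bases from 250 before to 50 after each transcription start. The table held 30 of the 38 genes. The core of the interferon-stimulated response element, GAAANNGAAA on either strand, occurred in 16 of these 30 genes (53.3%) and in 3.99% of the 27025 genes of the table. The gamma-activated site, TTCNNNGAA, which reads the same on both strands, occurred in 9 of the 30 and in 9.55% of all genes. A match is a description of the letters and not evidence of binding. The windows below show how the element recurs in the genes whose values are described here. Capitals mark the match, each sequence runs 5′ to 3′ along the gene's own strand, and a match on the opposite strand reads TTTCNNTTTC. They were chosen among the windows that hold the match, so that they share it follows from the choice.
Isg15 (chr4:156200866-156200905, minus strand): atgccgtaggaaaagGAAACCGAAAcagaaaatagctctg
Ifit1 (chr19:34640789-34640828, plus strand): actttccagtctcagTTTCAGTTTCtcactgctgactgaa
Ifit3 (chr19:34583392-34583431, plus strand): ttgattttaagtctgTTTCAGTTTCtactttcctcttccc
Ifit3b (chr19:34607788-34607827, plus strand): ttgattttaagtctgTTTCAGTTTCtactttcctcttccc
Rsad2 (chr12:26456548-26456587, minus strand): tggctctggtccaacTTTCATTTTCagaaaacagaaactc
Oas1a (chr5:120907526-120907554, minus strand): ccttctcgggaaatgGAAACTGAAAatct
Irgm1 (chr11:48871426-48871465, minus strand): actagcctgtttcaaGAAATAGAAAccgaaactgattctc
Igtp (chr11:58199507-58199546, plus strand): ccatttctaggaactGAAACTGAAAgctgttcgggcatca
Gbp2 (chr3:142620589-142620628, plus strand): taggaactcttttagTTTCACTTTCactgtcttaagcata
Bst2 (chr8:71537572-71537611, minus strand): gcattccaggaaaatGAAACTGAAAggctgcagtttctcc

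The window of Isg15 holds 3 overlapping matches, which begin 78, 72 and 66 bases before the start. Ifit3 and Ifit3b have identical letters in both 40-base windows around their matches. The 2 are closely related neighbouring genes, their transcripts were not compared here, and how shared reads were counted is not stated, so the split of counts between them is uncertain. No match to the response element core was found in the windows of Ifit2, Isg20, Irf1, Irf7, Irf9, Oasl1 or Oasl2. The same held for Xaf1, Samhd1, Ifi44, Ifi47, Cmpk2, Herc6 and Sp100. That says only that these letters are not there. Ifit2, Isg20, Irf1 and Samhd1 instead held the gamma-activated site, as in the following 2.
Isg20 (chr7:78913336-78913374, plus strand): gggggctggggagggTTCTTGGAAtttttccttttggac
Irf1 (chr11:53769909-53769947, plus strand): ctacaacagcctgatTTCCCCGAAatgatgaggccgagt

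**Figure D1:**
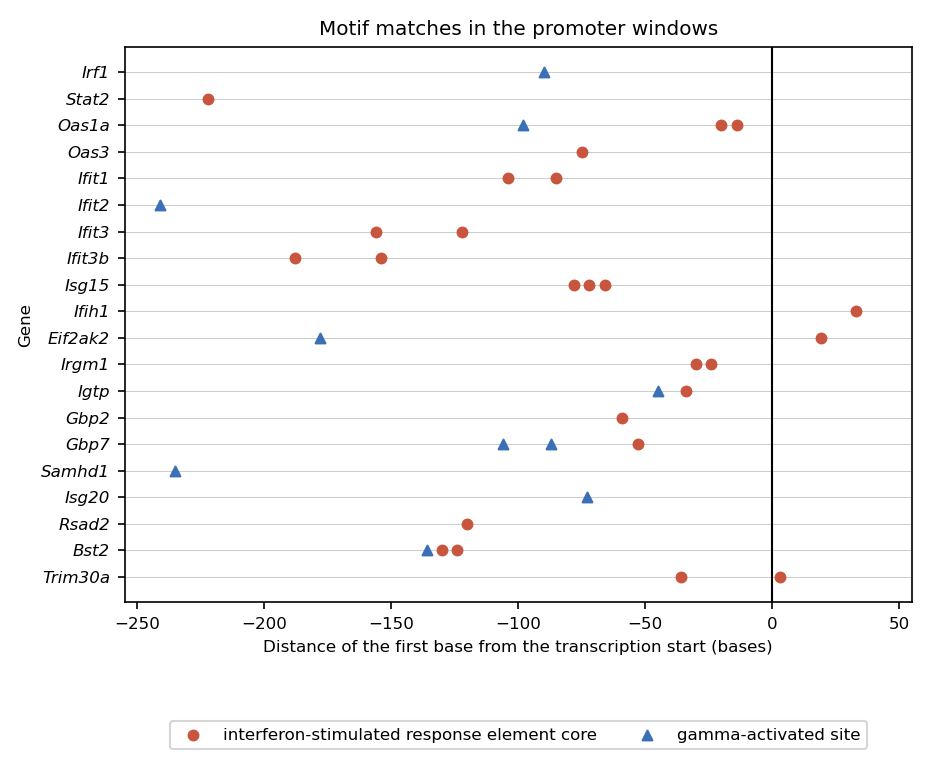
Position of each match in the promoter windows of the genes that hold one. The horizontal axis is the distance of the match's first base from the transcription start in bases, circles are the interferon-stimulated response element core and triangles the gamma-activated site. The Isg15 matches begin 78, 72 and 66 bases before the start.

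Total counts ran from 46137963 to 63956911 per library, and 3 counts correspond to 0.0469 to 0.0650 CPM (the count divided by the library total, times 1000000). Several defining basophil genes were nearly missing in set A. Fcer1a, the IgE-binding receptor chain, was counted 4, 0 and 0 times in the A libraries, against 10736, 5584 and 2681 times in those of B. Mcpt8, Prss34, Cpa3, Cd200r3 and Itga2 were likewise at most 1.28 CPM in every A library. Other markers of that list had counts in A. Hdc was at 37.96 to 267 CPM in A and 359 to 685 CPM in B, and Il3ra was highest in A replicate 2 at 42.9 CPM. Gata2 was at 0.109, 45.6 and 116 CPM (set A) versus 42.8, 1.15 and 24.8 CPM (set B). Ms4a2 was at 0, 11.9 and 0 CPM (set A) versus 19.1, 20.7 and 1.02 CPM (set B). The sets overlapped for Gata2 and Ms4a2. Of 10 basophil markers, all with counts in some library, the summed level was 39.7 to 386 CPM in A and 1458.5 to 3209 CPM in B. Genes of other blood cells were abundant in both sets. The 12 monocyte markers summed to 38284 to 45264 CPM in A and 26829 to 36641 CPM in B, the 10 B cell markers to 3416 to 5265 and 3834 to 5018, the 12 neutrophil markers, of which Ly6g was at 0, to 2401 to 9830 and 12572 to 23441, and the 12 T cell markers, of which Cd4 was at 0, to 1004 to 1413 and 377 to 689. The 11 markers of plasmacytoid dendritic cells, which carry much Irf7 and Bst2, summed to 396 to 859.7 CPM in A and 634 to 924 CPM in B. Cox6a2 and Klk1b27 were at 0 and Siglech was at 0.726 to 1.80 CPM, while Ly6d, which B cells also express, made up 216 to 796 CPM. The basophil and neutrophil sums were higher and the monocyte, T cell, platelet and erythroid sums lower in B without overlap (platelet markers 1296 to 1665 CPM in A, 628 to 1063 CPM in B). Without Lyz2 the other 11 monocyte markers overlapped, at 5508 to 6453 CPM in A and 4173 to 6895 CPM in B. For all these lists, their part in the differences below was not tested. In bulk libraries fewer cells of a type and less RNA per cell cannot be told apart.

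The interferon-stimulated genes were higher in total in set B. Their summed level was 2713, 2752 and 3168 CPM in A replicates 1, 2 and 3 and 3863, 3766 and 3423 CPM in B replicates 1, 2 and 3. Every B library stood above every A library. The means were 2878 ± 252 CPM in A and 3684 ± 231 CPM in B (SD, n = 3 each), a ratio of 1.28. Without Samhd1, the gene with the highest mean CPM, the ratio was 1.25 and the sets overlapped, since A replicate 3 (2457 CPM) and B replicate 3 (2456 CPM) were nearly equal. More of the genes were detected in B as well. At least 1 CPM was reached by 19, 19 and 22 of the 38 in A and by 26, 26 and 34 in B. Over all genes the number at 1 CPM or more was 5537, 6394 and 7639 in A and 7404, 8862 and 10732 in B, higher in B except that B replicate 1 lay below A replicate 3, and its part in this count was not tested.

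**Figure D2:**
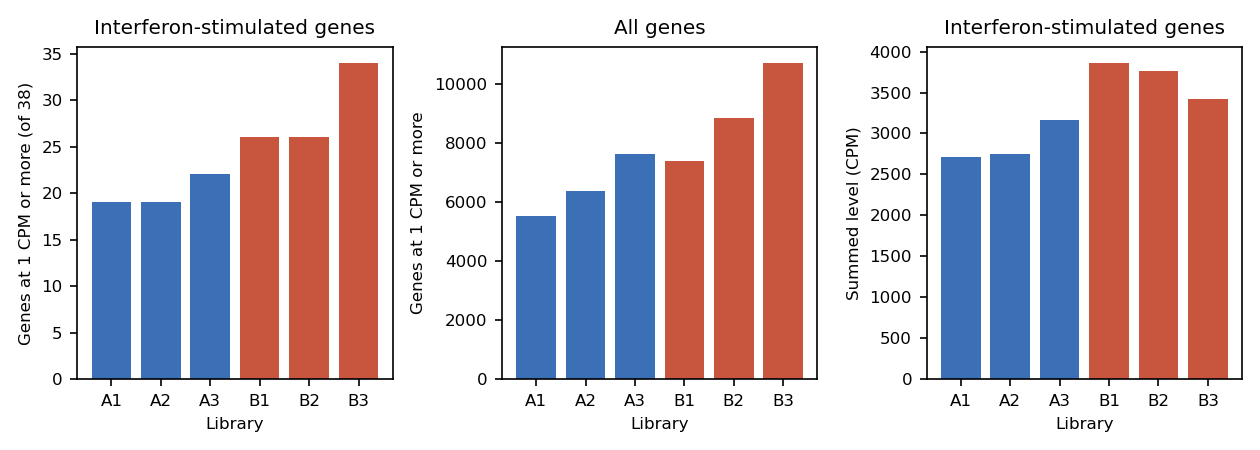
Left, how many of the 38 interferon-stimulated genes reached 1 CPM in each library; middle, the same over all genes; right, the summed CPM of the 38 genes. Bars are single libraries, A in blue and B in red; B replicate 3 has the most genes detected in both counts (34 and 10732).

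Levels differed widely between the genes. Per kilobase of exon (GENCODE M21 gene models), the mean level over the 6 libraries was highest for Ifi27l2a, a small membrane protein, at 1015 CPM per kilobase. Samhd1, a triphosphohydrolase that depletes the nucleotides viruses need, followed at 87.5 CPM per kilobase, then the GTPase Igtp at 73.7 and Rtp4, a chaperone-like inhibitor of viral replication, at 67.4. The first 3 were also among the 8 genes at 10 CPM or more in every library. The other 5 were Irf1, Irf9, Oasl2, Zbp1 and Sp100. Bst2, the tetherin that holds budding viruses at the cell surface, was the only other gene above 1 CPM in all 6, at 7.91, 54.2 and 29.2 CPM (set A) versus 30.03, 72.0 and 53.3 CPM (set B).

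Most of the remaining genes switched between libraries. Of the 26 genes that reached 50 CPM in some library, 17 were under 1 CPM in another (65.4%), and the share over all tested genes was 61.0%. The 17 include Mx1 and Eif2ak2, which were not tested, so the shares are not over like sets of genes. With that limit, the pattern is near that of the tested genes as a whole. Among tested genes whose mean lay between 30 and 100 CPM, 23.8% of the library values of the interferon-stimulated genes were under 1 CPM, against 19.5% over all genes. At a mean of 100 to 300 CPM the shares were 2.78% and 3.68%. A single low value of a gene under 100 CPM is thus common in these libraries.

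**Figure D3:**
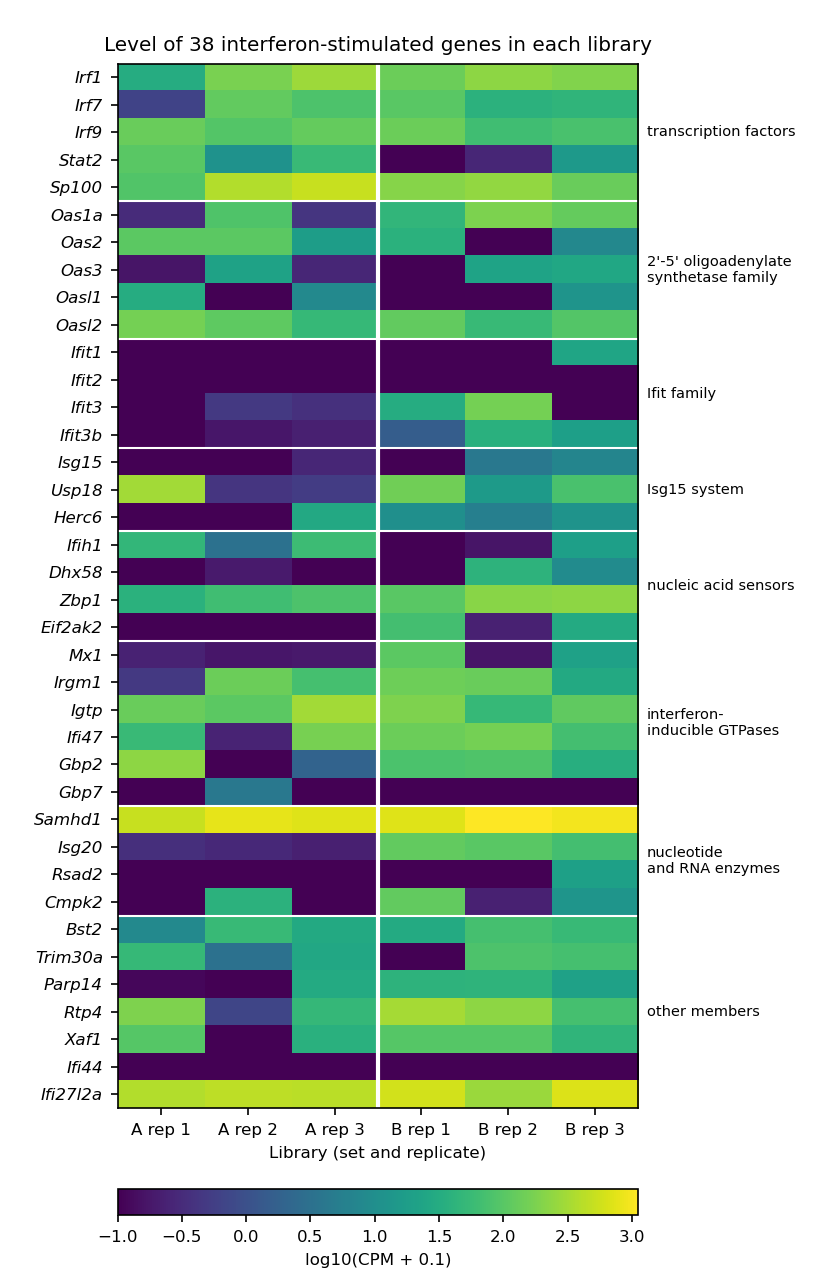
Level of each of the 38 genes (rows, grouped by role) in each library (columns, set and replicate). Colour is log10(CPM + 0.1), so the darkest cells are at or near 0; Samhd1 and Ifi27l2a are bright in all 6 libraries, and Isg20 is dark in the 3 A libraries and at 69.8 CPM or more in the 3 B libraries.

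Irf1, Irf7, Irf9, Stat2 and Sp100 were grouped as transcription factors. They summed to 733 ± 350 CPM in A and 545 ± 72.4 CPM in B (SD, n = 3 each). Irf1, an early target of interferon gamma, was at 32.7, 173 and 290.1 CPM (set A) versus 138, 230.3 and 191 CPM (set B). Irf9, the DNA-binding part of the type I factor, was at 135, 92.6 and 122 CPM (set A) versus 138, 64.6 and 75.7 CPM (set B). Irf7, which amplifies type I interferon production, was at 0.544, 118 and 81.5 CPM (set A) versus 103, 40.1 and 45.4 CPM (set B). The sets overlapped for all 3, with A replicate 1 low for Irf1 and Irf7. Stat2, the partner of Irf9, was at 103, 11.7 and 56.2 CPM (set A) versus 0, 0.169 and 15.3 CPM (set B), with the B values mostly below those of A but overlapping. Sp100, a nuclear body protein, was at 90.7, 382 and 508 CPM (set A) versus 209, 251 and 134 CPM (set B). It had the lowest p among the tested genes with a fitted value below 0 and did not pass the edgeR quasi-likelihood test (log2 difference -0.79, SE 0.61, adjusted p = 1.00).

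The oligoadenylate synthetases make the signal that activates RNase L against viral RNA. Oas1a was at 0.218, 86.7 and 0.325 CPM (set A) versus 46.8, 175 and 123 CPM (set B). Oas2 ran the other way, at 109, 106 and 17.99 CPM (set A) versus 38.8, 0 and 7.68 CPM (set B). The sets overlapped for both. Oasl2, an oligoadenylate synthetase-like protein, was present throughout at 51.3 to 159.9 CPM in A and 52.7 to 119.6 CPM in B. Oas3 did not exceed 25.9 CPM in any library, and Oasl1, which restrains Irf7, was at 0 in A replicate 2 and B replicates 1 and 2 and reached 32.3 CPM in A replicate 1. The 5 genes thus shared no order of libraries, although Oas2 and Oas3 are direct neighbours in the genome, as are Oasl1 and Oasl2.

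The Ifit proteins bind viral RNA ends. All 4 genes lie in 1 cluster that spans 6 protein-coding genes of chromosome 19, and all were under 1 CPM in the 3 A libraries. Ifit3 was at 0, 0.378 and 0.260 CPM (set A) versus 32.1, 162 and 0 CPM (set B). Ifit3b was at 0, 0.0757 and 0.130 CPM (set A) versus 1.45, 36.6 and 19.3 CPM (set B). Every B value of Ifit3b stood above every A value, while Ifit3 overlapped because B replicate 3 was at 0. Ifit1 appeared in B replicate 3 alone, at 23.9 CPM, and Ifit2 in no library. The log2 difference was 8.14 (SE 3.84, adjusted p = 0.974) for Ifit3 and 8.03 (SE 2.79, adjusted p = 0.565) for Ifit3b by edgeR, and neither passed. The fitted value of Ifit3 was 3.45 by limma-voom.

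Isg15, an interferon-induced ubiquitin-like protein that is attached to other proteins, was nearly missing. It was at 0, 0 and 0.173 CPM (set A) versus 0, 4.09 and 6.99 CPM (set B). Herc6, the ligase for Isg15 in mice, did not exceed 27.9 CPM. Usp18, which removes Isg15 and damps receptor signalling, was at 305, 0.322 and 0.433 CPM (set A) versus 146, 15.9 and 75.7 CPM (set B). The highest level of Usp18 was thus in A replicate 1, a library with no count of Isg15 or Herc6. Isg15, Herc6 and Usp18 summed to 111 ± 169 CPM in A and 92.2 ± 65.7 CPM in B (SD, n = 3 each).

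Among sensors of nucleic acid, Zbp1, which binds Z-form nucleic acid and can start necroptosis, was at 38.4, 65.0 and 83.9 CPM (set A) versus 104, 218 and 232 CPM (set B). All 3 B libraries stood above the A libraries, with means of 62.4 ± 22.9 and 185 ± 70.3 CPM (SD, n = 3 each). Zbp1 did not pass by edgeR (1.49 on the log2 scale, SE 0.62, adjusted p = 0.769). Eif2ak2, the kinase PKR that halts translation, was at 0 in the 3 A libraries whereas B replicates 1, 2 and 3 held 69.7, 0.135 and 30.3 CPM. Against the floor of 3 counts per A library its B mean was at least 9.15 higher on the log2 scale, a value that rests on B replicates 1 and 3. Ifih1, the RNA sensor Mda5, was at 47.4, 3.12 and 59.5 CPM (set A) versus 0, 0.0676 and 19.3 CPM (set B), and its partner Dhx58 reached 42.1 and 8.93 CPM in replicates 2 and 3 of B and stayed under 0.1 CPM elsewhere. The 4 sensors together summed to 99.1 ± 39.3 CPM in A and 241 ± 60.7 CPM in B (SD, n = 3 each). Zbp1 made up most of both means, while the mean of Ifih1 was lower in B (6.46 CPM) than in A (36.7 CPM).

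The interferon-inducible GTPases showed no common direction and summed to 402 ± 149 CPM in A and 452 ± 194 CPM in B (SD, n = 3 each). Igtp was at 132, 105 and 305 CPM (set A) versus 185, 51.1 and 115 CPM (set B). Irgm1, which controls the other members of its family, was at 0.363, 137 and 72.5 CPM (set A) versus 144, 135 and 28.8 CPM (set B). Ifi47 was at 56.1, 0.151 and 164 CPM (set A) versus 138, 161 and 68.2 CPM (set B). In each of these the sets overlapped, and the lowest A value was in replicate 2 for Igtp and Ifi47 and in replicate 1 for Irgm1. Gbp2, a guanylate-binding protein, was at 229, 0 and 1.84 CPM (set A) versus 80.9, 85.7 and 34.9 CPM (set B). Mx1, which traps viral nucleocapsids, stayed under 0.15 CPM in A and was at 106, 0.0676 and 21.0 CPM in B. Gbp7 was seen in A replicate 2 alone, at 4.14 CPM.

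Isg20, an exonuclease that degrades single-stranded RNA, showed the clearest separation between the sets by p. Its counts were 14, 10 and 6 in A replicates 1, 2 and 3 and 5877, 6193 and 4462 in B replicates 1, 2 and 3, or 0.254, 0.189 and 0.130 CPM and 118, 105 and 69.8 CPM. No other gene of the list combined A values this low with B values this even. The means were 0.191 ± 0.0620 CPM in A and 97.6 ± 25.0 CPM in B (SD, n = 3 each), and edgeR fitted 8.85 on the log2 scale (SE 1.65, adjusted p = 0.508), which did not pass over all genes. DESeq2 on the same genes gave adjusted p = 9.80e-13 and limma-voom adjusted p = 0.0348, and over all alternatives the adjusted p ran up to 0.998. Its level without any one library stayed 8.60 to 9.17 higher in B on the log2 scale. Samhd1 was at 509.7, 786 and 711 CPM (set A) versus 723, 1106 and 968 CPM (set B), and edgeR fitted 0.39 on the log2 scale (SE 0.24, adjusted p = 1.00). Cmpk2, a mitochondrial nucleotide kinase, and Rsad2, the viperin that makes a chain-terminating nucleotide, are direct neighbours. Cmpk2 was at 0, 40.1 and 0 CPM (set A) versus 121, 0.135 and 12.98 CPM (set B), while Rsad2 was seen in B replicate 3 alone at 20.2 CPM. These 4 enzymes of nucleotides and RNA summed to 682 ± 160 CPM in A and 1081 ± 125 CPM in B (SD, n = 3 each), most of it from Samhd1.

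**Figure D4:**
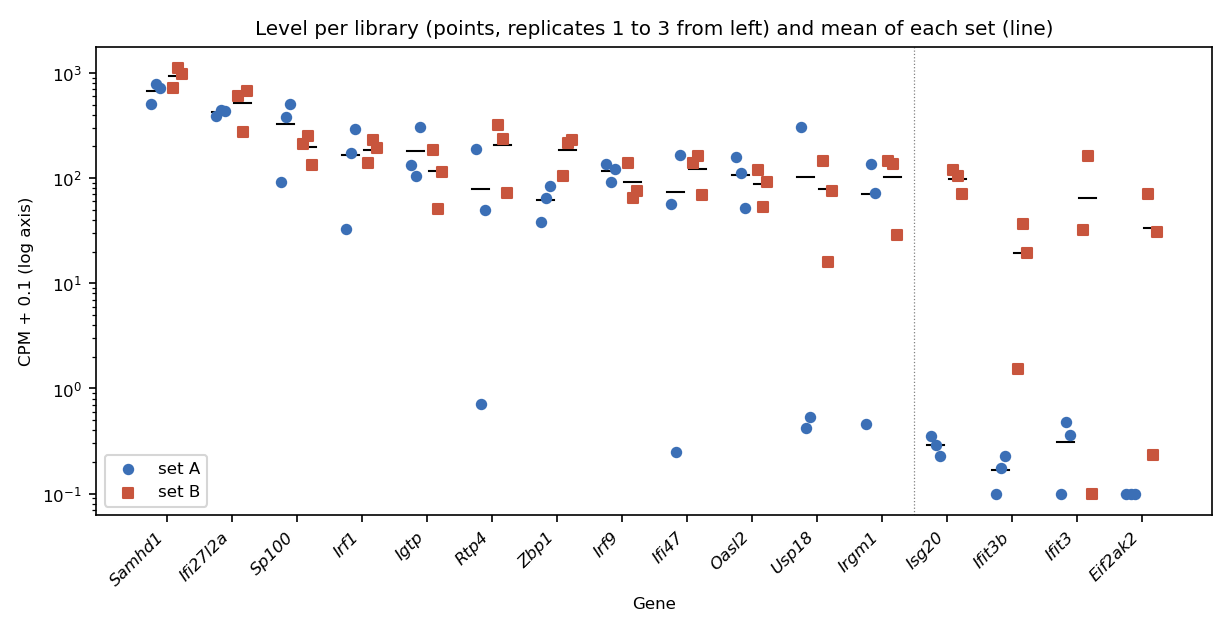
CPM + 0.1 on a log axis for the 12 genes with the highest mean CPM (left of the dotted line) and for Isg20, Ifit3b, Ifit3 and Eif2ak2. Points are single libraries and lines are set means; Isg20 lies at 0.130 to 0.254 CPM in A and 69.8 to 118 CPM in B, while the sets of Irf9 and Oasl2 overlap.

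The remaining genes also overlapped. Rtp4 was at 187, 0.605 and 49.4 CPM (set A) versus 319.6, 233 and 71.6 CPM (set B), and Ifi27l2a at 389, 448 and 434 CPM (set A) versus 602, 274 and 674 CPM (set B). Xaf1, a partner of apoptosis regulators, was at 96.5, 0 and 37.3 CPM (set A) versus 97.1, 96.8 and 44.2 CPM (set B). Trim30a and Parp14, which act in inflammatory signalling and ADP-ribosylation, had B means of 51.4 and 35.2 CPM and A means of 26.8 and 10.04 CPM, with a B replicate 1 value of 0 for Trim30a and A values under 0.02 in replicates 1 and 2 for Parp14.

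Across the list, 29 of the 38 genes passed the filter on low counts and were tested, and 9 did not (Ifit1, Ifit2, Isg15, Mx1, Rsad2, Dhx58, Ifi44, Gbp7 and Eif2ak2). By edgeR 0 of the 29 were called higher and 0 lower in B at an adjusted p under 0.05, where 0.0217% of the 9196 genes tested were called higher and 0% lower. At an unadjusted p under 0.05, 3 of the 29 were higher (Isg20, Ifit3b and Zbp1) and 0 lower, against 5.05% and 1.32% of all tested genes. The same 3 were the tested genes whose B libraries all stood above the A libraries, and 0 had all B libraries below. The shares over all tested genes were 10.2% and 3.91%, and 3 of 29 without overlap is near that background. Eif2ak2, which was not tested, also had all B libraries above, with B replicate 2 at 0.135 CPM. DESeq2 called 3 genes higher in B, Isg20, Ifit3b and Ifit3, and 0 lower, against 5.34% and 1.13% of all tested genes. It gave no adjusted p for 4 others. Limma-voom called Isg20 alone, against 2.12% higher and 0.0761% lower overall. The fitted values of 18 genes lay above 0 and of 11 below, and their median was 0.39 (log2), while 48.0% of all tested genes lay above 0 with a median of -0.06.

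**Figure D5:**
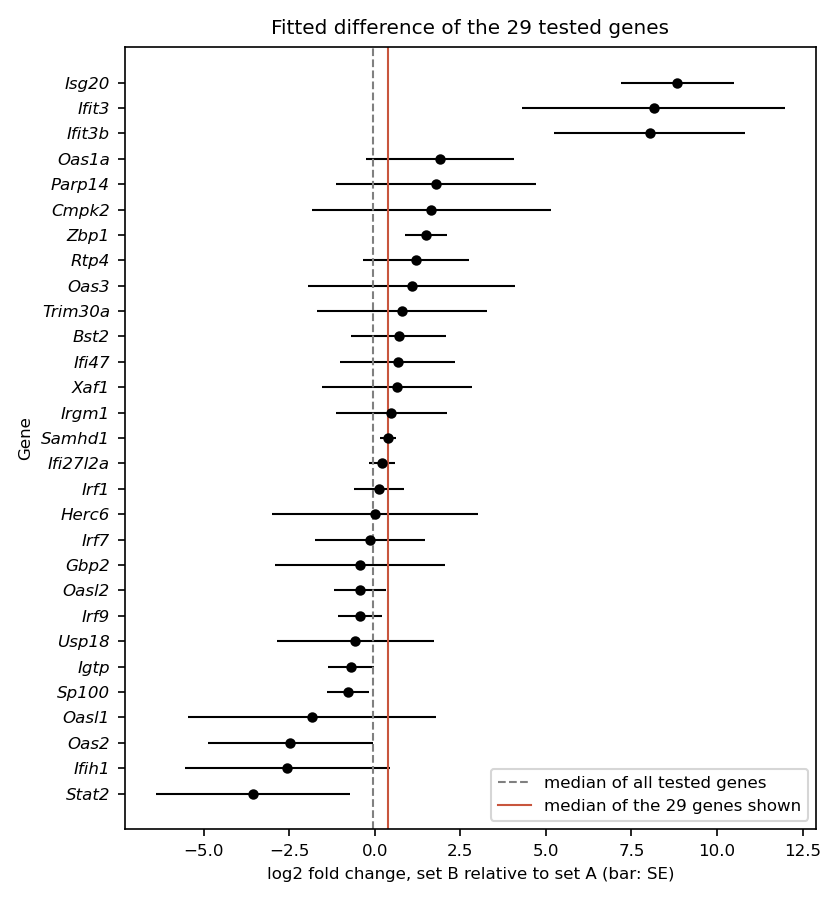
Fitted log2 fold change of set B relative to set A for the 29 tested genes, with its standard error as a bar. The dashed line is the median of all tested genes (-0.06) and the solid line that of the genes shown (0.39); most bars cross 0, and those of Isg20, Ifit3 and Ifit3b lie farthest to the right.

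Genes under 1 CPM throughout set A were more numerous than genes under 1 CPM throughout set B. Under 1 CPM in all 3 A libraries but at 1 CPM or more in a B library were 9 of the 36 genes with 1 CPM somewhere (25.0%): Ifit1, Ifit3, Ifit3b, Isg15, Isg20, Mx1, Rsad2, Dhx58 and Eif2ak2. The reverse held for Gbp7 alone. Over all 14459 genes with 1 CPM somewhere, 28.3% were under 1 CPM in all A libraries and 10.3% in all B libraries, so the share of 25.0% was close to that of the table as a whole.

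Receptor chains for type I interferon and interferon gamma were detected, the lambda receptor chain Ifnlr1 had 0 counts in every library, and interferon genes were nearly all at 0. Of 12 interferon genes, 11 had 0 counts in every library, and Ifng was at 0.0625 CPM in B replicate 3 alone. Of 18 genes of receptors and signalling, 16 were tested and 0 passed by edgeR in either direction, with 3 fitted values above 0 and 13 below and a median of -0.58. Ifngr1, the interferon gamma receptor's binding chain, was at 1457, 1091 and 1122 CPM (set A) versus 1025, 944 and 903 CPM (set B), so that all B values were lower (adjusted p = 0.919 by edgeR). Ifnar2 was at 148, 78.03 and 154 CPM (set A) versus 118, 229 and 192 CPM (set B), and Ifnar1 at 0, 78.2 and 40.9 CPM (set A) versus 55.2, 12.8 and 33.6 CPM (set B). Ifngr2 ran from 94.7 to 239.7 CPM over the 6 libraries. Ptpn6, the phosphatase SHP-1, had the highest mean CPM of the list, 1471 ± 176 in A and 1549 ± 59.4 in B (SD, n = 3 each). Irf5, a factor of myeloid and B cells, was at 505, 505 and 1037 CPM (set A) versus 109, 416 and 236 CPM (set B). Its log2 difference of -1.51 (SE 0.53, adjusted p = 0.575) did not pass by edgeR and passed by DESeq2 (adjusted p = 0.00781).

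Of 9 matched genes of nucleic acid sensing, 4 were tested, 0 passed by edgeR, and 3 of the fitted values lay above 0. Myd88, the adaptor of most Toll-like receptors, was at 163, 404 and 378 CPM (set A) versus 526, 376 and 328 CPM (set B). Tlr7 and Mavs, the receptor and the adaptor for viral RNA, had sets that overlapped. Of 71 further interferon-stimulated genes, 52 were tested and 0 passed by edgeR, with 21 fitted values above 0 and 31 below and a median of -0.21. Shisa5, an apoptosis-related membrane protein, was at 1429, 1172 and 1507 CPM (set A) versus 838, 671 and 920.2 CPM (set B), for which edgeR fitted -0.86 on the log2 scale (SE 0.21, adjusted p = 0.508, and adjusted p = 0.000555 by DESeq2). Slfn2, which keeps leukocytes quiescent, was at 1311 ± 297 CPM in A and 1374 ± 279 CPM in B, and Ms4a4c at 463 ± 233 and 324 ± 206 CPM (SD, n = 3 each). DESeq2 also called Parp9 and Trim56 higher in B, 2 genes that, with Irf5, were picked after their values were seen. Parp9, an ADP-ribosyltransferase partner, had no count in set A and 77.6, 87.7 and 4.86 CPM in set B, at least 9.92 higher on the log2 scale against 3 counts per A library.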

How the data were processed

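The authors deposited raw counts per Ensembl gene, 1 column per library, without normalization. Cutadapt 1.9, HISAT2 2.2.1 and DESeq2 are named, with no role, per the submitters' processing notes. Counter, genome build, annotation, use of strand and handling of reads shared by related genes: not given in the sources used here. Per the labels' protocols libraries were made with Smart-seq2 and read as pairs of 150 bases, with about 1000000 reads stated per library, fewer than the counted totals of 46137963 to 63956911. The labels also name 10x Genomics. Without molecular identifiers, amplified copies count as reads, and the value 4 (5211 times) was far more common than 3 (819) or 5 (660), so floors cover counting error only. Symbols matched 55141 of the 55401 identifiers.

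CPM is the count over the library total, times 1000000. Set B was compared with set A over all 6 libraries with edgeR 4.0.16 (R 4.3.3): filterByExpr, TMM, glmQLFit with robust=TRUE, glmQLFTest, Benjamini-Hochberg over 9196 genes, threshold 0.05. Dividing the absolute log2 difference by the root of F gave its SE. Alternatives were no scaling factor, RLE factors, testing every gene with a count, a filter of 10 counts in all 3 libraries of either set plus 10 CPM on average, DESeq2 1.42.0, limma-voom 3.58.1 with sample weights, robust=FALSE, a replicate block and each library left out. Code was tested on simulated data. Values per library were given for the genes of highest mean CPM, of smallest p or without overlap between the sets, and, outside that rule, for further members by role. Plots add 0.1 CPM before the log. The genes and lists were chosen with earlier results of these data known. Of 112 other pathway genes listed, Rigi and Sting1 had no match by symbol. One item of the pathway lists is not reported here.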

Additional observations from a re-analysis of the deposited data

How the results depend on the processing

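The count of interferon-stimulated genes called stayed at 0 in each direction under every edgeR alternative and every omission of 1 library. It differed with the test: DESeq2 called 3 higher (Isg20, Ifit3b and Ifit3) and limma-voom 1 (Isg20), and for the other pathway genes DESeq2 called 2 higher and 2 lower and limma-voom 1 higher. Over all genes edgeR called 2 higher and 0 lower, DESeq2 491 and 104, limma-voom 195 and 7, and the count higher was 0 with a replicate block and 0 to 1 when 1 library was left out. The cause was not tested. The median log2 fold change of the tested interferon-stimulated genes was 0.39. The replicate block gave 0.97 (0.48 over all genes) and limma-voom 1.61 (0.87 over all genes). It was 0.28 with RLE scaling (all genes -0.16) and 0.28 with DESeq2 (all genes -0.16). Library size alone gave 0.48 (all genes 0.04) and no filter 0.63 (all genes 0.28). With the stricter filter it was 0.16 (all genes -0.07), and without 1 library 0.28 to 0.64 (all genes -0.07 to 0.16). The direction of the 8 genes with a printed log2 difference was kept in each alternative that tested them; Ifit3 and Ifit3b did not pass the stricter filter. Same-numbered libraries of the sets did not deviate together (correlations of 0.0276, -0.0241 and 0.0256). A replicates 2 and 3 did not correlate best with their own numbers, so the numbers were not taken to pair the libraries. The ratio of summed CPM was 1.24 to 1.35 when 1 library was left out.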

Other observations

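Among the 9 interferon-stimulated genes under 1 CPM in all A libraries but at 1 CPM or more in a B library, 7 had a promoter window, and 6 of these 7 (85.7%) held the response element core; Isg20 was the one without it. Ifit2 and Ifi44, at 0 in all 6 libraries, also had a window and did not hold the core, which makes 6 of 9 when they are included. The 6 include Ifit1, Ifit3 and Ifit3b of 1 cluster, and the last 2 have identical letters around their matches. Ifit1 and Rsad2 reached 1 CPM in B replicate 3 alone. Of the 21 other detected genes with a window, 10 held it (47.6%). Over all detected genes the share was 4.42% among those detected in B alone by the same limit and 4.15% among the rest. The split was made after the levels had been seen, and no test was run on it.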
